A study of Mus musculus with 19 samples.

Results

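The serpin genes of the mouse were taken as every symbol in the expression tables made of Serpin, a clade letter from a to i and a number. Where a symbol had several transcripts, the one with the most reads on average stood for it. This gave 63 genes of 23337 gene symbols. Of them, 25 belonged to clade A and 27 to clade B, 3 to clade E, and 2 each to clades F and I, while clades C, D, G and H held 1 gene each. Levels are given in RPKM, read counts scaled by transcript length and library size.

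RNA-seq covered 11 libraries of 5 tissues. Visceral yolk sac endoderm (ysE), the outer epithelium of the visceral yolk sac (VYS), was collected at E12.5 (1 library) and E9.25 (2 libraries). VYS mesoderm at E9.25 and fetal liver at E12.5 gave 2 libraries each. All of these came from FVB mice with no treatment named, and each sample pooled an entire litter. Layers were separated with an enzyme, and the mesoderm samples also held vessels and basement membrane. Cystic embryoid bodies (EBs), hollow aggregates grown from ES cells, gave 4 libraries, after 10 (d10) and 15 (d15) days of differentiation of the C57Bl/6x129 clones A9 (replicate A) and JN (replicate B). Whole genome bisulphite sequencing (WGBS) covered E12.5 ysE, E12.5 liver and d15 cystic EBs, each in 1 CastxFVB (CxF) and 1 FVBxCast (FxC) library, and each of those EB libraries came from 1 ES clone. H3K4me3 ChIP-seq was from 1 library of E12.5 FVB VYS holding both layers. The study asked how closely cystic EBs resemble ysE.

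Most serpins inhibit serine or cysteine proteases. The protease cuts an exposed loop of the serpin, which then changes shape and traps the enzyme in a covalent complex. Clade A holds mainly secreted plasma serpins, several of them made in large amounts by hepatocytes and yolk sac endoderm, and clade B holds serpins that mostly stay inside the cell. Some members inhibit no protease: Serpinh1 (HSP47) is a collagen chaperone of the endoplasmic reticulum, and Serpina6 carries glucocorticoids in blood.

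Total counts ran from 40453779 in the E12.5 ysE library to 169981821 in E9.25 ysE replicate B. The yolk sac endoderm markers Afp, Ttr, Amn, Cubn and Apoa4 summed to 41365 RPKM at E12.5 and to 8704 and 9702 at E9.25 in ysE, against 97.3 to 1072 in cystic EBs. Liver was at 1447 and 2610 for these and at 418 and 904 for its hepatoblast markers. In mesoderm, vessel and mesenchyme markers summed to 403 and 399 RPKM, and erythroid markers to 24626 and 19643. Mesoderm replicate A and the d15 A9 EBs stood apart from their own groups: the trophoblast markers Tpbpa, Prl3d1, Prl2c2 and Ascl2 summed to 103.2 RPKM in mesoderm A against 1.62 in mesoderm B, and to 40.3 in the d15 A9 EBs against at most 1.64 in the other EB libraries. The pluripotency markers Pou5f1, Nanog and Zfp42 summed to 64.3 to 137 RPKM in the EBs and to at most 5.53 in a tissue library. Library protocol differed between tissues: the single E12.5 ysE library was nonstranded, the E9.25 tissues and JN EBs were made with dUTP, and liver and A9 EBs with ScriptSeq. The protocol of the E12.5 ysE library cannot be told apart from its tissue and stage. In bulk samples like these, fewer cells of a type and less RNA per cell cannot be told apart either.

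Serpin genes were counted by level in each tissue, without the same count over all genes. A mean of 1 RPKM or more was reached by 19 of the 63 genes for ysE at E12.5 and 13 at E9.25, 20 for mesoderm, 18 for liver and 14 for cystic EBs. With every library of the tissue at 1 RPKM or more, the counts were 19, 12, 15, 17 and 8 in the same order. Over all tissues 33 genes reached a mean of 1 RPKM or more, and 30 stayed under it everywhere. Of the 14 genes with a mean of 10 RPKM or more in some tissue, 13 are described one by one.

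Serpinh1 led the list in 9 of the 11 libraries. Its share of all serpin RPKM was 80.7% and 81.3% in mesoderm, 65.6% to 68.1% in cystic EBs, and for ysE 46.8% and 47.1% at E9.25 and 31.2% at E12.5. In liver the share was 17.6% and 8.12%, and the glucocorticoid carrier Serpina6 stood first.

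**Figure D1:**
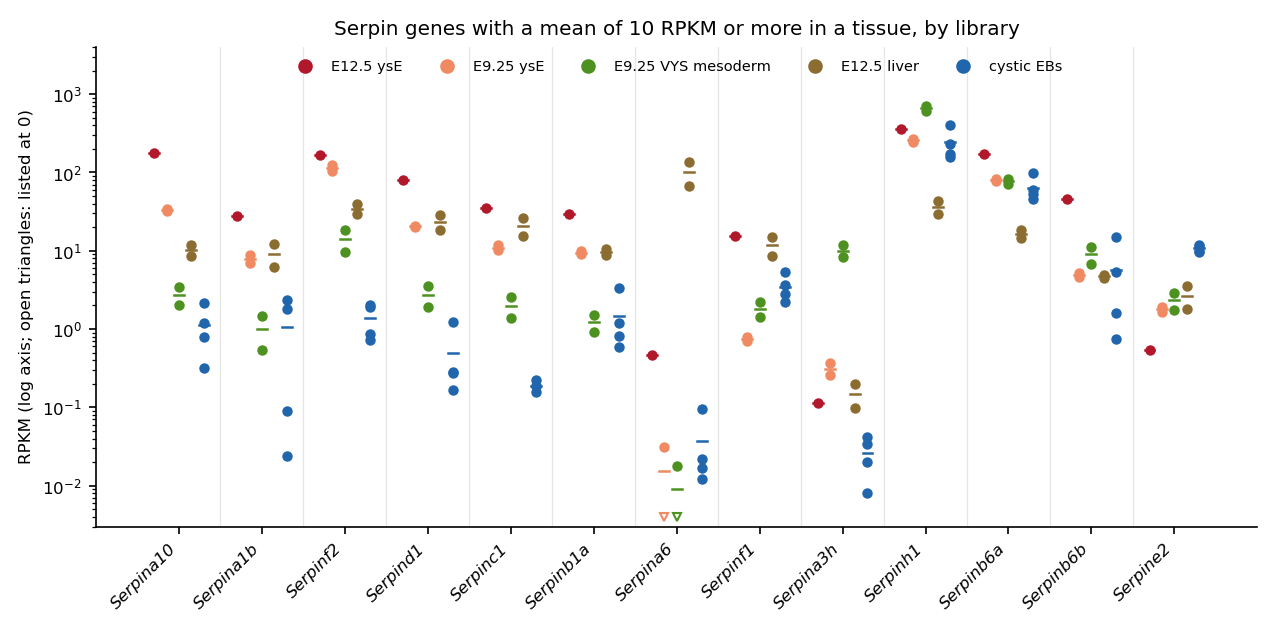
RPKM on a log axis of 13 serpin genes with a mean of 10 RPKM or more in a tissue, 1 point a library, with short lines at tissue means and open triangles where a library is listed at 0. Serpinf2, Serpina10, Serpind1 and Serpinc1 sit highest in E12.5 ysE, and their tissue means are lowest in cystic EBs, Serpina6 stands out in liver at 67.8 and 136 RPKM, and Serpine2 is highest in cystic EBs.

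Serpinf2, Serpina10, Serpind1 and Serpinc1, secreted inhibitors of clotting and fibrinolysis, each had their highest value in the E12.5 ysE library. For Serpinf2 (alpha2-antiplasmin, the inhibitor of plasmin; chr11:75431736-75439501, mm10), ysE reached 165 RPKM at E12.5 and 105 and 125 at E9.25, liver 29.1 and 39.2, mesoderm 9.57 and 18.4, and the 4 cystic EB libraries 0.733 to 2.004. For Serpina10, which blocks factor X together with protein Z (chr12:103616675-103631490), ysE reached 175 RPKM at E12.5 and 32.1 and 34.0 at E9.25, liver 8.51 and 11.9, mesoderm 2.04 and 3.42, and the EBs 0.321 to 2.17. For both genes the ysE libraries stood above the liver libraries, and no EB library reached the lowest liver value.

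Serpind1 (heparin cofactor II, an inhibitor of thrombin; chr16:17331371-17343574) stood at 79.4 RPKM in ysE at E12.5 and at 20.02 and 20.98 at E9.25, with liver at 18.4 and 28.3, mesoderm at 1.91 and 3.56, and EBs at 0.167 to 1.25. Serpinc1 (antithrombin; chr1:160978583-161002543) stood at 35.5 RPKM in ysE at E12.5 and at 10.1 and 11.7 at E9.25, with liver at 15.5 and 26.5, mesoderm at 1.38 and 2.60, and EBs at 0.157 to 0.224. Liver overlapped E9.25 ysE for Serpind1 and lay above it for Serpinc1, and cystic EBs were lowest for both.

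Of the 6 alpha1-antitrypsin genes, whose human counterpart restrains neutrophil elastase, 4 had their highest mean in E12.5 ysE, and Serpina1a and Serpina1f had it in liver. Serpina1a was at 3.82 RPKM in E12.5 ysE and at 3.71 and 7.74 in liver. Serpina1b (chr12:103728156-103738189) reached 28.1 RPKM there and 6.97 and 8.92 at E9.25, 6.21 and 12.1 in liver, and 0.544 and 1.49 in mesoderm. The cystic EBs held 0.089 and 0.024 RPKM of it on d10 and 2.35 and 1.79 on d15. Serpina1a to Serpina1f are tandem copies whose similarity was not measured here. How reads that match several copies were counted is not given in the sources used here, so the split between copies is uncertain. Summed, the 6 copies gave 45.4 RPKM for ysE at E12.5 and 9.47 and 12.4 at E9.25, 11.9 and 24.0 for liver, 0.895 and 2.27 for mesoderm, and 0.176 to 2.59 for EBs.

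The promoters were searched for short motifs. In the RefSeq windows from 250 bases before to 50 bases after each gene's start (GRCm38.p6), 5 of the copies carry one and the same stretch around GTTAAT, letters found in HNF1 sites. Capitals mark the motif in each, and all lie on the minus strand of chromosome 12.
Serpina1a, chr12:103863627-103863648: tgacattgGTTAATattcacta
Serpina1b, chr12:103738202-103738223: tgacattgGTTAATattcacta
Serpina1c, chr12:103904964-103904985: tgacattgGTTAATattcacta
Serpina1d, chr12:103773636-103773657: tgacattgGTTAATattcacta
Serpina1e, chr12:103956962-103956983: tgacattgGTTAATattcacta
Searched on both strands, GTTAAT occurred in 11 of the 52 serpin genes with a window and in 8.24% of 27025 genes. The other 6 serpin genes, Serpina3c, Serpina7, Serpinb3b, Serpinb3d, Serpinb8 and Serpini2, had it in other surroundings. TATAAA occurred in 15 of the 52 against 15.7% of all genes, GAANNTTC, a heat shock element core, in 6 against 9.04%, and CAAAGTCCA, an HNF4 site, in 0 against 0.555%. These are matches of letters, and tandem copies are not independent of each other. Serpina6, Serpina9, Serpina10, Serpina3h, Serpina3k, Serpina3m, Serpina4-ps1, Serpinb1a, Serpinb13 and Serping1 were among those with no window listed.

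Serpina6, the corticosteroid-binding globulin (chr12:103646630-103657218), stood out in liver. Its 67.8 and 136 RPKM there compare with 0.460 for ysE at E12.5, 0 and 0.031 at E9.25, 0.018 and 0 for mesoderm, and 0.012 to 0.096 for cystic EBs. The lower liver library lay far above every other library. Serpina12 (vaspin, an inhibitor of a tissue kallikrein) and Serpina5 (the protein C inhibitor) stood out in E12.5 ysE instead. Serpina12 was at 4.72 RPKM in that library and at no more than 0.054 in any other, and Serpina5 at 6.39 RPKM and no more than 0.044.

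Serpina3 copies stood out in mesoderm. Serpina3h (chr12:104247896-104254405) held 11.7 and 8.38 RPKM there, against 0.113 for ysE at E12.5 and 0.257 and 0.370 at E9.25, 0.097 and 0.198 for liver, and 0.008 to 0.042 for cystic EBs. Serpina3f, Serpina3g, Serpina3h and Serpina3i, similar neighbours whose split of reads is uncertain in the same way, summed to 22.4 and 17.9 RPKM in mesoderm and to at most 1.08 in any other library. Both mesoderm libraries were high. Beside this, the decidua marker Prl8a2 was at 194 RPKM in mesoderm A and 12.99 in mesoderm B, 11.6 and 35.3 in E9.25 ysE and at most 0.919 in other libraries, and its part in the Serpina3 level was not tested.

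Among intracellular serpins, Serpinb6a, an inhibitor of cathepsin G (chr13:33917918-34002794), was broadly high. It reached 174 RPKM in ysE at E12.5 and 82.5 and 78.3 at E9.25, with mesoderm at 82.8 and 71.8, cystic EBs at 46.1 to 99.2, and liver at 14.7 and 18.1. Both liver libraries lay under all others. Its relative Serpinb6b (chr13:32956811-32979067) reached 46.3 RPKM in ysE at E12.5 and 5.18 and 4.68 at E9.25, with mesoderm at 11.3 and 6.76, liver at 4.49 and 4.95, and EBs at 0.748 to 14.9. The EB libraries spanned the values of E9.25 ysE, mesoderm and liver. Serpinb1a, an inhibitor of neutrophil serine proteases (chr13:32842092-32853206), stood at 29.8 RPKM for ysE at E12.5 and 9.91 and 9.07 at E9.25, 10.7 and 8.83 for liver, 0.922 and 1.53 for mesoderm, and 0.593 to 3.30 for EBs.

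Serpinh1 (chr7:99345375-99353239) reached 709 and 614 RPKM in mesoderm, with ysE at 357 at E12.5 and 248 and 271 at E9.25, cystic EBs at 156 to 409, and liver at 43.7 and 29.1. Mesoderm lay above and liver below all other libraries. Serpine2 (protease nexin 1, which acts on thrombin and plasminogen activators; chr1:79794317-79858665) was at 9.72 to 11.9 RPKM in the 4 EB libraries and at no more than 3.57 in a tissue library. All 4 EB libraries lay above every tissue library. Serpinf1 (PEDF, an anti-angiogenic serpin; chr11:75410029-75422623) reached 15.2 RPKM in ysE at E12.5 and only 0.796 and 0.709 at E9.25, with liver at 8.62 and 15.1, EBs at 2.20 to 5.33, and mesoderm at 2.19 and 1.44.

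The comparisons used edgeR's quasi-likelihood test on the deposited counts of all transcripts, in 1 fit over the 5 tissues, with Benjamini-Hochberg adjustment over 24858 transcripts. A gene is called at an adjusted p under 0.05, and such a p is given as the edgeR adjusted p. Differences are log2 values with standard errors. Of the 63 serpin genes, 53 passed the filter on low counts, and the 10 others had no test. A gene can pass that filter through the tissue where it is high, so counts below describe the 53 and not the family. Comparisons that share libraries are not independent of each other, and the p-values measure the spread between these litter pools and EB cultures. The 4 EB libraries entered as separate replicates, though each ES clone gave both a d10 and a d15 library. They are therefore not 4 independent cultures, and the EB p-values do not account for this.

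Against the mesoderm of the same stage, E9.25 ysE was higher in Serpina10, Serpinf2, Serpinc1 and Serpind1 and lower in 4 of the 11 Serpina3 copies. Of the other copies Serpina3m differed by 2.76 ± 1.03 without passing the test (edgeR adjusted p = 0.0698). Of the 53 genes 7 were higher in ysE, beside 13.7% of all transcripts, and 13 were lower, beside 16.9%. The median log2 difference was -0.55 over the 53 genes and -0.05 over all transcripts. Serpina10 was higher by 3.91 ± 0.74 (edgeR adjusted p = 0.00377), Serpinf2 by 3.35 ± 0.56 (edgeR adjusted p = 0.0019) and Serpinc1 by 2.76 ± 0.36 (edgeR adjusted p = 0.000643). Serpind1, Serpinb1a, Serpina1a and Serpina1e were higher as well, Serpind1 not without any of the 4 libraries compared (edgeR adjusted p = 0.0629 to 0.14) and Serpinb1a not without mesoderm A (edgeR adjusted p = 0.0901). Serpina3h fell by 4.67 on the log2 scale (SE 0.59, edgeR adjusted p = 0.000538), Serpina3f by 4.82, Serpina3i by 4.24 and Serpinb9 by 3.44. These 4 lower genes and Serpina10, Serpinf2 and Serpinc1 kept their call with any single library left out, and the other 13 called genes did not. Without E9.25 ysE replicate A, E9.25 ysE replicate B, mesoderm A or mesoderm B the count of 20 became 9, 10, 9 or 13, while the share of all transcripts became 5.59% to 8.04% higher and 9.34% to 12.3% lower.

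Serpinb12 and Serpina12 had 0 counts in E9.25 ysE and 38 and 28 counts in mesoderm. This makes them at least 15.6-fold and 11.5-fold lower, taking 3 counts over the group as the floor and the mesoderm counts as observed. Serpinh1 differed by -1.03 ± 0.46, which was not called (edgeR adjusted p = 0.123). Other lower genes were Serpina3g, Serpinb1b, Serpinb2, Serpinb8, Serpinb10-ps and Serpini1.

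Mesoderm also carried ysE transcripts. Its levels of Afp, Ttr, Amn, Cubn and Apoa4 were 7.36% to 15.98% of the E9.25 ysE mean in replicate A and 12.3% to 26.6% in replicate B. The levels of Serpina10, Serpina1b, Serpinb1a, Serpinc1, Serpind1 and Serpinf2 were 6.16% to 12.7% in A and 10.4% to 23.9% in B. These 6 serpins, like the ysE markers, were higher in mesoderm B than in A, and the part of carried transcripts in their levels was not tested. Serpinb6a was at 102.98% and 89.3% of the ysE mean, and Serpinh1 at 273% and 237%.

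Between the 2 yolk sac stages, Serpinf1 and Serpina12 were among the serpins higher at E12.5. In E12.5 ysE 9 of the 53 genes were higher than in E9.25 ysE, beside 3.9% of all transcripts, and 0 were lower, beside 4.57%. Lower at an unadjusted p under 0.05 were 4, Serpina3i, Serpina3m, Serpine2 and Serping1, and edgeR on the libraries of these groups alone called 23 higher and 12 lower, beside 25.1% and 25.2% of all transcripts, while without liver A or liver B it called 7 higher and 1 lower, beside at most 3.22% and 3.56%. DESeq2 called 10 higher and 2 lower, beside 8.21% and 7.5% of all transcripts. Serpinf1 was higher by 4.25 ± 0.52 (edgeR adjusted p = 0.00272), and Serpina12, with 751 counts against 0, was at least 1720-fold higher. These were the only calls that stood without either E9.25 ysE library, when the count was 2, beside 0.622% and 0.752% of transcripts higher without replicate A and B. The other 7 were Serpina5 at 8.13 ± 1.19, Serpina3a, Serpina6, Serpina11, Serpina1e, Serpinb9 and Serpinc1 at 1.62 ± 0.40. Without d15 EB replicate A the count was 14, beside 5.67% of transcripts higher and 5.84% lower. Serpina10 was higher by 2.32 ± 0.78 without passing the test (edgeR adjusted p = 0.097). With 1 E12.5 library, its spread is assumed to be that of the other tissues, and stage and protocol cannot be told apart. RLE scaling in place of TMM moved the median of all transcripts from -0.21 to -0.04 here, and DESeq2 to -0.02.

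At E12.5, ysE exceeded liver in 10 genes and fell below it in 8, beside 22.6% and 23.7% of all transcripts. Higher in ysE were Serpinb6a by 3.44 ± 0.43 (edgeR adjusted p = 0.00029), Serpina10 by 4.14 ± 0.81 (edgeR adjusted p = 0.00273), Serpinh1 by 3.33 ± 0.55 (edgeR adjusted p = 0.00113) and Serpina5 by 8.56 ± 1.24 (edgeR adjusted p = 0.000601). Serpina12, Serpina1e, Serpina3a, Serpina9, Serpinb9b and Serpinf2 completed the list. With any single library but that of E12.5 ysE left out 14 of the 18 calls stood. The E12.5 ysE library has no replicate and could not be left out. Serpinb9b lost its call without liver A or liver B (edgeR adjusted p = 0.0731 to 0.107) and Serpinb8, called lower, without liver B (edgeR adjusted p = 0.0692). Serpina9 held 26 counts in ysE and 0 in liver, at least 26.4-fold higher, a call lost without liver A or liver B, and Serpinf2 at 2.31 ± 0.60 (edgeR adjusted p = 0.011) lost its call without liver A (edgeR adjusted p = 0.066). Lower in ysE were Serpina6, which fell by 7.75 (SE 1.31, edgeR adjusted p = 0.00131), Serping1 (the C1 inhibitor of complement and kallikrein), which fell by 4.53, Serpine2, which fell by 2.28, and Serpini1, Serpina3f, Serpinb2, Serpinb8 and Serpinb10-ps. Serpinb10-ps had 725 counts in liver and 0 in ysE, at least 79.5-fold lower. Serpinc1 and Serpind1 differed by 0.80 ± 0.41 and 1.81 ± 0.94, and neither passed (edgeR adjusted p = 0.135 and 0.14).

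**Figure D2:**
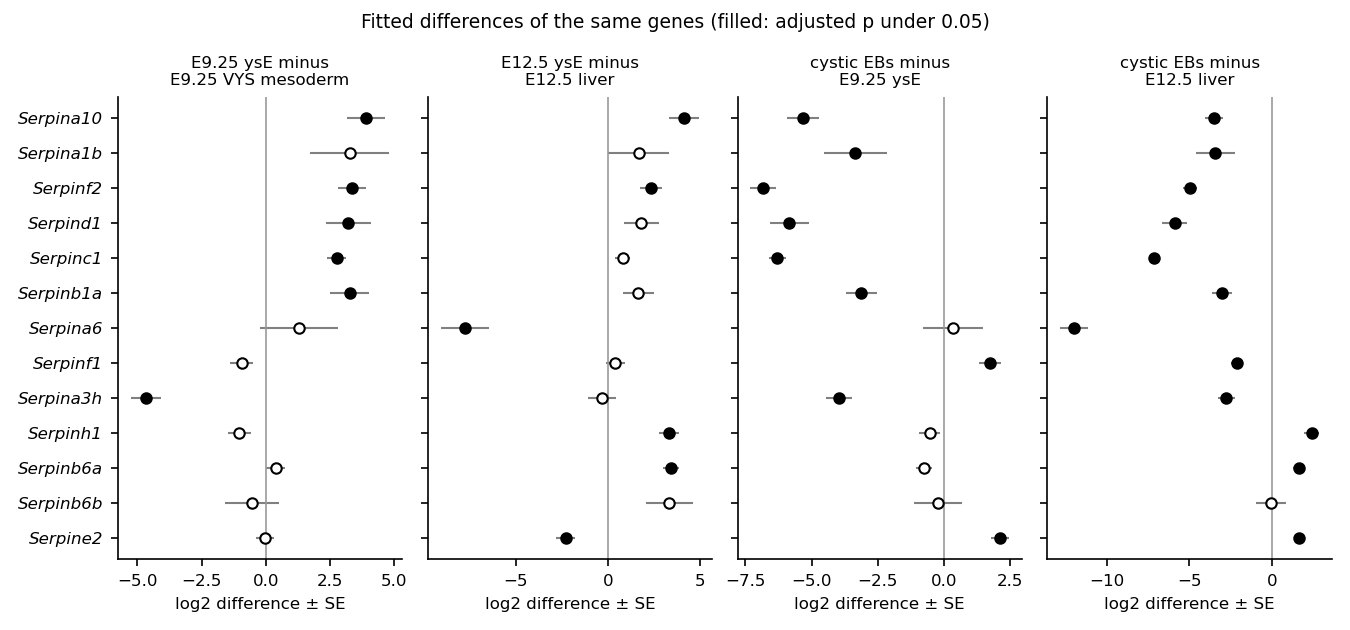
Log2 differences with standard errors of 13 leading serpin genes in 4 comparisons, filled where the adjusted p is under 0.05. Serpina10, Serpina1b, Serpinb1a, Serpinc1, Serpind1 and Serpinf2 lie below 0 in both cystic EB panels, and Serpine2 lies above 0.

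Cystic EBs were lower than E9.25 ysE in Serpinf2, Serpinc1, Serpina10 and Serpind1, and higher in Serpine2 and Serpinf1. Against E9.25 ysE, 9 of the 53 genes were higher in EBs, beside 27.1% of all transcripts, and 16 were lower, beside 23.2%. Of the 23 clade A genes tested, 12 were lower and 1 higher, with a median log2 difference of -2.69. Of the 20 clade B genes tested, 4 were higher and 1 lower, with a median of 1.43. The median over all transcripts was 0.17. Serpinf2 fell by 6.83 (SE 0.48, edgeR adjusted p = 2.01e-05), Serpinc1 fell by 6.29 (SE 0.32, edgeR adjusted p = 1.5e-05) and Serpina10 by 5.33 (SE 0.60, edgeR adjusted p = 0.000133). Serpind1, Serpinb1a, Serpina3h, 5 Serpina1 copies and Serpina3k, with -5.87 ± 1.28, were among the other lower genes. Serpina3k held 4 counts over the EB libraries, so its size rests near the floor. Serpine2 was higher by 2.12 ± 0.35 (edgeR adjusted p = 0.00105), Serpinf1 by 1.75 ± 0.40, Serpini1 (neuroserpin, an inhibitor of tissue plasminogen activator) by 3.52 ± 0.55 and Serpinb6c by 4.24 ± 0.92. Without E9.25 ysE replicate B the calls of Serpinf1 (edgeR adjusted p = 0.0563) and Serpinb6c (edgeR adjusted p = 0.0502) were lost and the count was 15, beside 16.8% of transcripts higher and 14.1% lower. That of Serpina1b, at -3.35, was lost without any of 8 single libraries (edgeR adjusted p = 0.0522 to 0.14). Serpina7 (thyroxine-binding globulin), the clade A gene called higher, had 17 counts in EBs and 0 in E9.25 ysE, at least 5.14-fold higher, a call lost without E9.25 ysE replicate A or B. With any single library left out, 15 of the 25 calls stood.

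Against E12.5 ysE, 6 genes were higher in EBs, beside 21.1% of all transcripts, and 21 were lower, beside 18.8%. Of the 23 clade A genes tested, 14 were lower and 0 higher. Serpinc1 fell by 7.92 (SE 0.36, edgeR adjusted p = 7.72e-06), Serpina10 by 7.65 and Serpinf2 fell by 7.28. Among less abundant genes Serpina12 fell by 9.63 and Serpina3a fell by 9.40. Over the EB libraries Serpina12 held 9 counts and Serpina3a 1, so these sizes rest near the floor. Serpine2 was higher by 3.94 ± 0.55 (edgeR adjusted p = 0.00054) and Serping1 by 3.81 ± 0.91. Serpinb6c, Serpinb8 and Serpini1 were higher too, with 1, 1 and 3 counts in the E12.5 ysE library. Their lowest EB values were 2.56, 0.291 and 0.449 RPKM, against 0.017, 0.008 and 0.022 in that library. Of the 27 calls 26 stood with any single library but that of E12.5 ysE left out. The E12.5 ysE library has no replicate and could not be left out.

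Against liver, Serpina6, Serpinc1, Serpind1, Serpinf2 and Serpina10 were lower in EBs, and Serpinh1, Serpinb6a and Serpine2 were higher. In all, 9 genes were higher in EBs, beside 24.6% of all transcripts, and 22 were lower, beside 20.9%. Of the 23 clade A genes tested, 15 were lower and 0 higher. Serpina6 fell by 11.99 (SE 0.84, edgeR adjusted p = 1.44e-05), Serpinc1 by 7.12 (SE 0.33, edgeR adjusted p = 1.89e-06) and Serpind1 fell by 5.90 (SE 0.74, edgeR adjusted p = 0.000281). Among called genes below 10 RPKM, the largest falls were of Serpina11, which fell by 10.62, and Serpinb2, which fell by 8.31. These held 1 and 3 counts over the EB libraries, so the sizes rest near the floor. The largest rises among called genes were 6.48 ± 1.09 for Serpinb6c and 5.64 ± 1.99 for Serpinb9f, with 9 and 2 counts in liver. Serpinh1 was higher by 2.42 ± 0.45 (edgeR adjusted p = 0.00231), Serpinb6a by 1.65 ± 0.34 (edgeR adjusted p = 0.00395) and Serpine2 by 1.67 ± 0.34 (edgeR adjusted p = 0.00385). Within the ScriptSeq protocol, A9 EBs against liver, Serpinh1 differed by 2.71 and Serpina10 by -3.07, both called. Of the 31 calls 21 stood with any library left out, and that of Serpinb9f was lost without any of 6 single libraries, both E9.25 ysE, both liver and both d15 EB libraries (edgeR adjusted p = 0.0598 to 0.195).

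Against mesoderm, 2 genes were higher in EBs, beside 13.9% of all transcripts, and 14 were lower, beside 15%. Serpine2 was higher by 2.09 ± 0.35 (edgeR adjusted p = 0.00277) and Serpinb6c by 4.63 ± 0.94 (edgeR adjusted p = 0.00667), the latter not without mesoderm B (edgeR adjusted p = 0.0769). Serpina3h fell by 8.65 (SE 0.54, edgeR adjusted p = 2.25e-05), Serpina3f by 7.40, Serpina3g fell by 6.63 and Serpina3i by 5.67. Serpinc1 and Serpinf2 were lower by values of -3.53 ± 0.30 and -3.48 ± 0.43, beside the ysE markers that the mesoderm libraries carry. Serpinh1 fell by 1.56 (SE 0.38, edgeR adjusted p = 0.0152), which was lost without mesoderm A (edgeR adjusted p = 0.0926) or B (edgeR adjusted p = 0.0724). The count of 16 became 10 without mesoderm A, beside 4.2% of transcripts higher and 6.68% lower, and 8 without mesoderm B, beside 3.76% and 6.46%.

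Day 15 and day 10 EBs were compared next, 2 libraries against 2. edgeR called 0 of the 53 genes in either direction, beside 0% of all transcripts higher and 0% lower, while 1358 transcripts, among them 12 higher and 1 lower serpin gene, had an unadjusted p under 0.05. Serpina1b differed by 5.31 ± 0.76 (edgeR adjusted p = 0.57) and Serpinb6b by 3.16 ± 0.57 (edgeR adjusted p = 0.57), both higher on d15 in each clone. The summed yolk sac endoderm markers also rose, from 283 to 1072 RPKM in A9 and from 97.3 to 402 in JN. Their part in the serpin levels was not tested. With the ES clone as a block, both were called, beside 82 transcripts higher and 6 lower of 24858, Serpina1b at 5.35 ± 0.68 (edgeR adjusted p = 0.0301) and Serpinb6b at 3.04 ± 0.27 (edgeR adjusted p = 0.00583), and DESeq2 without the block called 2 serpin genes, beside 122 transcripts higher and 20 lower.

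Tandem clade B copies differed between libraries of one tissue, and the split of reads among the Serpinb6 and among the Serpinb9 copies is uncertain. Serpinb9b to Serpinb9g, relatives of the granzyme B inhibitor Serpinb9, summed to 26.2 RPKM in the d15 A9 EBs against 7.19, 4.43 and 5.70 in the other EB libraries. In mesoderm they summed to 12.47 in replicate A and 1.002 in replicate B, and ysE and liver held 0.312 to 2.58. The trophoblast markers were high in the same pair of libraries, at 40.3 and 103.2 RPKM, though partly through different genes. In liver A they summed to 14.9 RPKM, where the Serpinb9 sum was 0.597. Tpbpa was at 25.4 RPKM in the d15 A9 EBs and 0.114 in mesoderm A, Prl2c2 at 0.995 and 44.4, and Prl3d1 at 12.8 and 58.5. The decidua markers Prl8a2 and Prl3c1 summed to 194 RPKM in mesoderm A against 13.03 in mesoderm B, and to at most 0.062 in EBs. The part of either list in these levels was not tested. Serpinb6c followed the EB pattern, at 10.2 RPKM in the d15 A9 EBs against 2.56 to 3.13 in the others, but was low in mesoderm A, at 0.236. Without the d15 A9 library, Serpinb9b in EBs against E9.25 ysE moved from 2.25 to 1.66 (edgeR adjusted p = 0.067), a call lost without any of 7 single libraries, liver and E9.25 ysE among them (edgeR adjusted p = 0.0526 to 0.192), and Serpinb6c moved from 4.24 to 3.52 and kept it (edgeR adjusted p = 0.00249).

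**Figure D3:**
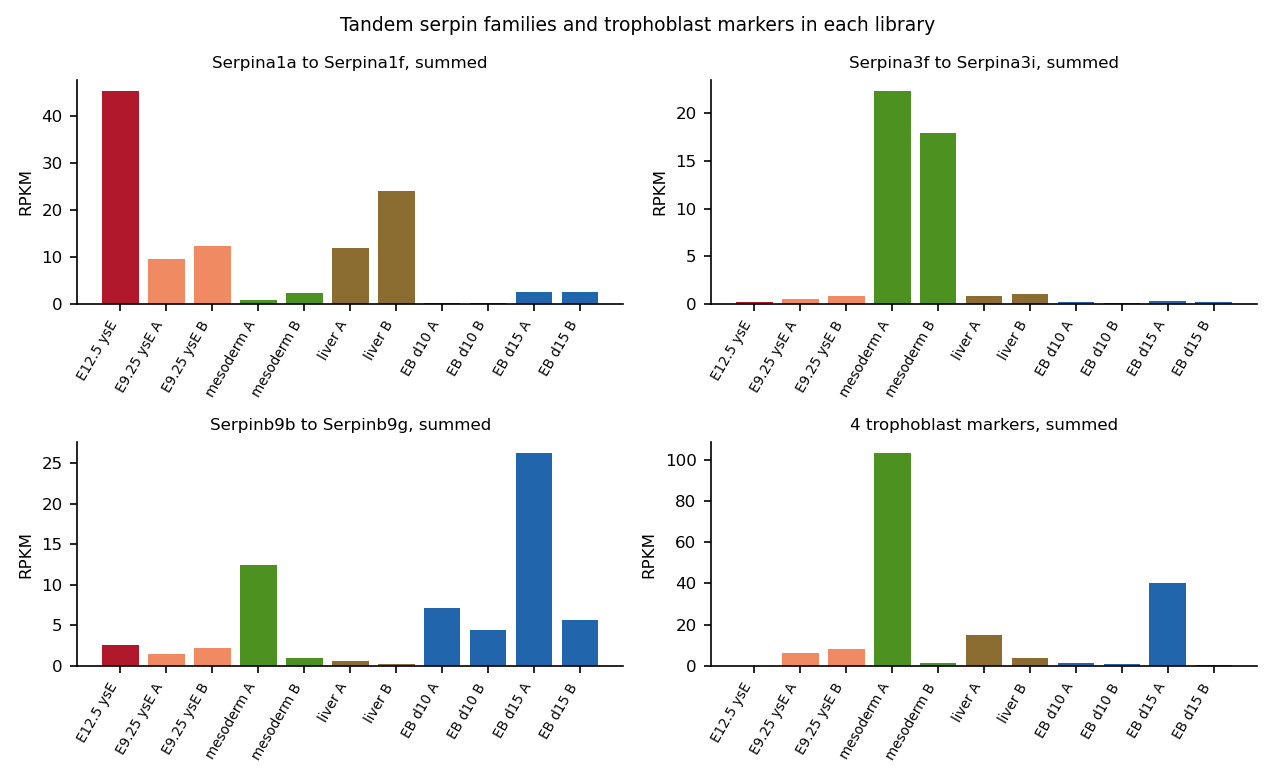
Summed RPKM by library, as bars from 0, of Serpina1a to Serpina1f, Serpina3f to Serpina3i, Serpinb9b to Serpinb9g, and the 4 trophoblast markers. The Serpina1 sum peaks at 45.4 in E12.5 ysE and the Serpina3 sum in both mesoderm libraries, while the Serpinb9 and trophoblast sums are both high in mesoderm A and the d15 A9 cystic EBs.

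Proteases and partners of the serpins gave 39 tested genes of 40 listed. All 7 coagulation genes were lower in EBs than in liver, beside 20.9% of all transcripts, and 5 of 7 were lower than in E9.25 ysE, beside 23.2%. F2 (prothrombin, a target of antithrombin and heparin cofactor II) ran from 0.891 to 8.02 RPKM in EBs, at 45.5 and 57.2 in liver and at 238 in E12.5 ysE, and fell by 4.12 against liver (SE 0.66, edgeR adjusted p = 0.00106). Plg (plasminogen, whose active form Serpinf2 inhibits) ran from 0.199 to 1.34 RPKM in EBs against 35.8 and 57.4 in liver, and fell by 6.40 (SE 0.68, edgeR adjusted p = 0.000129). Plat (tissue plasminogen activator, a target of Serpini1) moved the other way, at 18.5 to 44.4 RPKM in EBs against 4.15 and 1.67 in liver and 3.28 and 3.24 in E9.25 ysE. It was higher by 2.82 ± 0.53 against liver (edgeR adjusted p = 0.00233) and by 2.55 ± 0.52 against E9.25 ysE (edgeR adjusted p = 0.00309). Of the 7 collagen genes listed as clients of Serpinh1, 5 were lower in E9.25 ysE than in mesoderm, beside 16.9% of all transcripts, and 5 lower in EBs than in mesoderm, beside 15%. Col1a1 was at 174 and 198 RPKM in mesoderm, 7.73 and 15.5 in E9.25 ysE and 2.43 to 20.7 in EBs. Col4a1, a basement membrane chain, was at 122 to 693 RPKM in EBs and 13.5 and 13.1 in liver, higher in EBs by 4.15 ± 0.81 (edgeR adjusted p = 0.00308). The endocytic receptor gene Lrp2 was at 12.1 to 29.7 RPKM in EBs, 253 in E12.5 ysE and 0.897 and 1.08 in liver.

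H3K4me3, a mark of active promoters, was counted at the serpin genes. A peak lay within 1 kb of the gene start, or of either gene end where the strand was not known, in 16 of the 63 genes, beside 59.9% of 21900 protein-coding genes. Of the 12 serpin genes at 5 RPKM or more in E12.5 ysE 7 had a peak, of the 7 between 1 and 5 RPKM 3 had one, and of the 44 under 1 RPKM 6 had one. The same split was not made for all genes. The part of low RNA levels in the lower share of serpin genes with a peak was not tested. The longest peak lay at Serpinh1, with 3328 bp, and Serpina10, Serpinb6a and Serpinb6b had peaks of 2342, 2171 and 2082 bp. Serpinf2 and Serpind1 had 1949 and 2111 bp. Serpinc1, at 35.5 RPKM, Serpinb1a, at 29.8, and Serpina1b, at 28.1, had none within 1 kb. Serpinb1a, taken by either gene end, had one within 5 kb, and Serpinc1 and Serpina1b did not. The tandem copies Serpina1a and Serpina1c, at 3.82 and 1.97 RPKM, had peaks of 695 and 318 bp. How ChIP reads matching several copies were placed is not given in the sources used here. Which of these copies carries the mark is therefore uncertain. Genes with a peak but under 1 RPKM in ysE included Serpina3h, Serpinb8, Serpine2, Serping1 and Serpini1. The ChIP library held mesoderm as well as ysE, and which layer a peak came from was not tested.

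**Figure D4:**
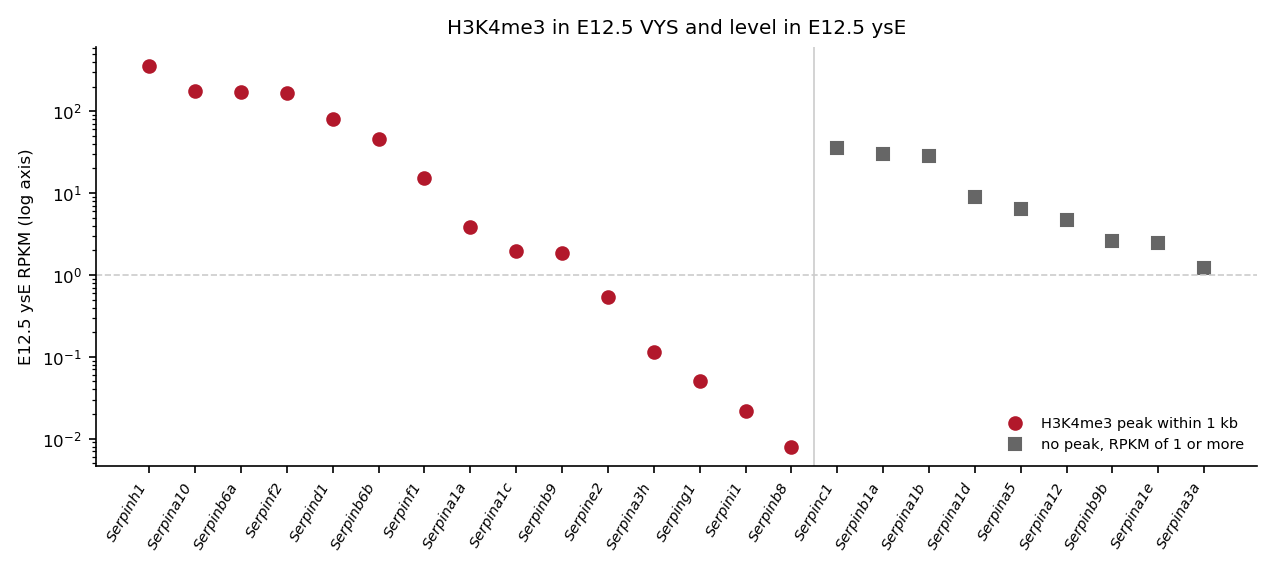
RPKM in E12.5 ysE, on a log axis with a dashed line at 1, of 15 serpin genes with an H3K4me3 peak within 1 kb and of the 9 genes at 1 RPKM or more without one. Genes with a peak range from Serpinh1 at 357 RPKM to genes far below the line, and Serpinc1 at 35.5 RPKM leads those without a peak.

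DNA methylation was read as the percentage of methylated reads over the CpGs of each gene, with at least 5 reads in each library. The CpG files held 0 to 13 calls per library on chromosome 13, against 169884 or more on chromosome 12. The 15 serpin genes of chromosome 13, and Serpina7 on chromosome X with 0 reads, therefore have no methylation values. Comparing ysE and liver, 43 serpin genes were covered. Both ysE libraries lay below both liver libraries in 21, beside 56.1% of 15267 genes, above them in 5, beside 3.33%, and overlapped in 17. Comparing ysE and EBs, 41 were covered, and ysE lay below in 34, beside 61.5% of 16013 genes, and above in 1, beside 2.94%. With 2 libraries against 2 the smallest exact two-sided p is 0.333, so these are counts without a test. Over the 40 genes covered in every library, ysE had a median of 66.0% and 61.2%, liver of 73.1% and 77.2%, and EBs of 89.7% and 87.5%, given as CxF then FxC throughout.

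The clusters of clade B and clade A differed in ysE. The 12 clade B genes of chromosome 1 (chr1:106861175-107608978), which did not exceed 1.72 RPKM in any library, lay in an interval with 43.7% and 38.8% methylation in ysE over 917 and 1193 reads, against 69.9% and 59.3% for the whole chromosome. In liver the interval was at 70.0% and 75.4%, and in EBs at 84.8% and 82.6%, nearer to the chromosome's 76.6% and 79.2% in liver and 86.0% and 84.3% in EBs. Between its genes ysE was at 44.3% and 39.5%. Serpinb12 was at 11.8% and 17.9% in ysE over 17 and 28 reads, against 64.3% and 61.5% in liver and 89.3% and 91.4% in EBs, while its RNA was listed at 0 in ysE, liver and EBs. The 24 clade A genes of chromosome 12 (chr12:103616675-104414334) lay in an interval at 70.0% and 64.8% in ysE over 2638 and 1958 reads, near the chromosome's 69.0% and 60.5%. Liver was at 73.6% and 80.3% there, and EBs at 87.8% and 89.9%.

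Methylation over the genes of the abundant plasma serpins varied. Serpina1b was at 39.0% and 95.2% in ysE over 41 and 21 reads, at 60.9% and 52.2% in liver and at 100% in both EB libraries. Serpina1a was at 25.7% and 0% in ysE over 35 and 5 reads and at 100% and 58.8% in liver over 5 and 17. Serpinf2 was at 93.8% and 85.4% in ysE and 71.1% and 72.7% in liver, 1 of the 5 genes with higher values in ysE. Serpina10 showed 73.8% and 68.4% for ysE, 63.8% and 81.1% for liver and 90.4% and 90.5% for EBs, and Serpinc1 at 79.3% and 62.3%, at 73.8% and 91.8%, and at 82.3% and 82.8%. Serpina6, which only liver expressed above 1 RPKM, showed 71.0% and 54.2% for ysE, 85.0% and 64.0% for liver and 97.0% and 83.3% for EBs. Promoters had 5 reads in all libraries compared for only 5 serpin genes in ysE and liver and 3 in ysE and EBs. Against liver, ysE lay below in 2 and overlapped in 3, beside 29.7% of 4604 genes below. Against EBs, ysE lay below in 2 and overlapped in 1, beside 36.8% of 4579 genes below. Among these promoters that of Serpinh1 was at 16.7% and 0% for ysE over 6 and 9 reads, 80% and 40% for liver over 5 and 5, and 61.1% and 50% for EBs over 18 and 8.

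**Figure D5:**
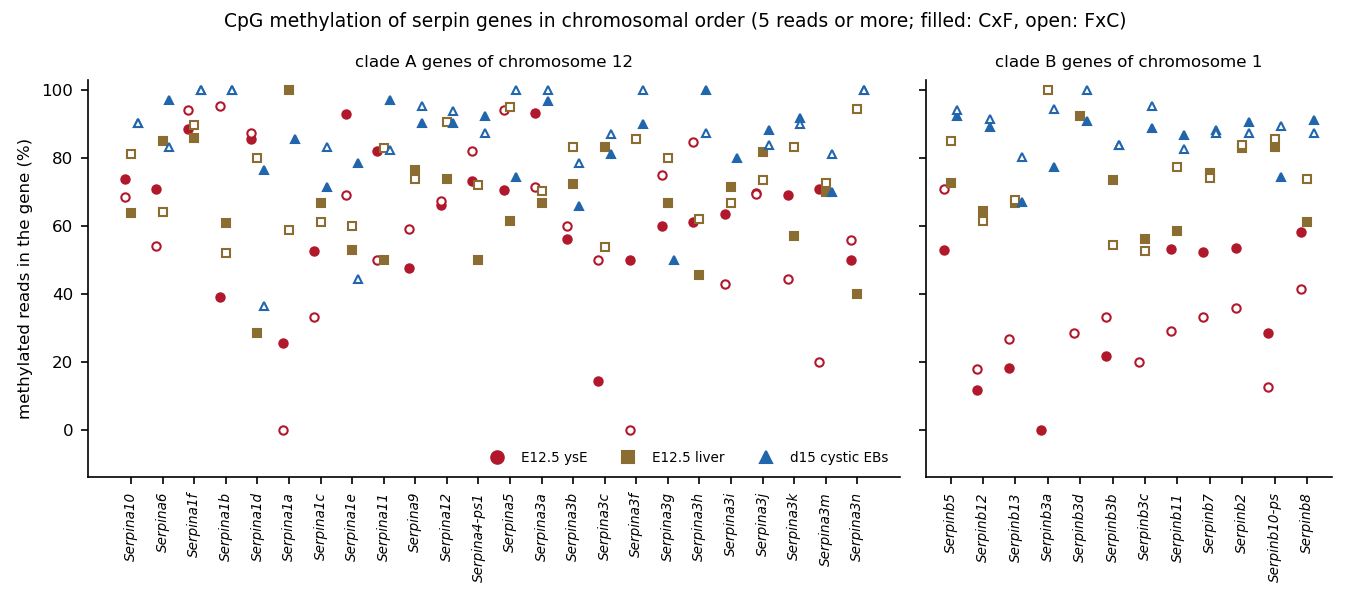
Percent methylated reads per gene, for genes with at least 5 reads, of the clade A genes of chromosome 12 and the clade B genes of chromosome 1 in chromosomal order, with filled points for CxF and open points for FxC libraries. The ysE points of the clade B genes sit mostly below liver and cystic EBs, as for Serpinb12 at 11.8% and 17.9%.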

How the data were processed

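Reads were aligned with GSNAP to mm10, and the authors deposited raw counts per RefSeq transcript and RPKM values for each library, with replicates kept apart. CpG tables were deposited by the authors as the percent of methylated reads and the count of reads at each CpG, and H3K4me3 peaks with a MACS 1.4.2 score against input. How reads matching several genes were counted is not given in the sources used here. Exon-part and repeat counts were not used.

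Counts were tested with edgeR 4.0.16 (R 4.3.3) by the quasi-likelihood test, with TMM scaling, filterByExpr, 5 groups over 11 libraries and a 5% false discovery rate over 24858 transcripts. Day 15 and day 10 were split in a separate fit. Total counts per library limit the precision of low genes. Folds against a group without counts used a floor of 3 counts over the group, scaled by total counts. They cover counting error in that group only. The count of the other group was taken as observed. Log2 sizes of genes with few counts in a group were not bounded in this way. The method was tested on simulated data. Alternatives included DESeq2 1.42.0. Methylation was summed over reads per gene.

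Library deviations correlated at r = 0.638 between d10 and d15 of the same clone, so EB libraries of 1 clone are not independent. The main fits did not pair the EBs by clone, and the clone block was an alternative setting. Clone and library protocol cannot be told apart in these libraries. Replicate letters of other tissues gave r of -0.0859 to 0.174. The serpin genes, partner lists and markers were chosen with earlier results of these data known. Genes with a mean of 10 RPKM or more in a tissue were described singly, except 1 that is not reported here but is included in the counts, with the 2 largest changes in each direction as examples below that level. Further members, among them Serpina12, Serpina5 and the Serpina3 and Serpinb9 copies, were named after their values were seen. Protein sequences were not used.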

Additional observations from a re-analysis of the deposited data

Results flagged for a closer look

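The check took 23 quantities with an EB mean of 1 RPKM or more. A quantity could pass that level through the very library it is flagged for, so a chance rate of 1 in 20 does not apply. The d15 A9 cystic EBs stood far above the other 3 EB libraries in 5 of the 23. Serpinb6c was at 10.249 RPKM there, Serpinb9b at 13.495 and Serpinb9e at 7.367. The 7 Serpinb9 genes summed to 28.758 RPKM and Serpinb9b to Serpinb9g to 26.228. The gap to the next library was 0.86 to 0.926 of the range, above Dixon's critical value for 4 samples. That value takes the libraries as independent, whereas each clone gave both a d10 and a d15 library. These quantities overlap, since the sums hold the single genes. The split of reads among these tandem copies is uncertain.

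From d10 to d15 the clones moved in opposite directions for a pair of genes, a difference that was not tested. Serpinb6c changed by 7.415 RPKM in A9 and by -0.565 in JN, and Serpinf1 by -3.136 in A9 and by 0.863 in JN. Clone and library protocol cannot be told apart here.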

How the results depend on the processing

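At a 1% false discovery rate the called serpin genes numbered 9 in place of 20 in E9.25 ysE against mesoderm, 9 in place of 16 in EBs against mesoderm and 3 in place of 9 in E12.5 against E9.25 ysE. The shares of all transcripts higher and lower were then 7.26% and 10.1%, 5.56% and 7.47%, and 1.11% and 0.784%. With only the 2 groups compared in the fit, E12.5 ysE gave 28 calls against liver in place of 18, and 35 against E9.25 ysE, beside 27.8% of transcripts higher and 31% lower in the first and 25.1% and 25.2% in the second. In the second a stricter filter on low counts gave 5, beside 4.98% and 6.33%. The cause was not tested. Leaving out single libraries gave 9 to 24 calls for E9.25 ysE against mesoderm, 15 to 28 for EBs against E9.25 ysE, 8 to 21 against mesoderm, 21 to 32 against liver and 26 to 28 against E12.5 ysE. It gave 15 to 24 for E12.5 ysE against liver, 2 to 14 against E9.25 ysE, and 0 to 1 for d15 against d10, where the lone remaining library is assumed to vary like the other groups. The shares of all transcripts called moved as well, the higher ones from 5.59% to 15.5% for E9.25 ysE against mesoderm, 16.2% to 28% for EBs against E9.25 ysE, 3.76% to 15.3% against mesoderm, 13.5% to 26.4% against liver and 18.5% to 22.6% against E12.5 ysE. They ran from 17.3% to 24% for E12.5 ysE against liver, 0.622% to 5.67% against E9.25 ysE and 0% to 0.167% for d15 against d10. In the same orders the lower ones ran from 9.34% to 18.6%, 14.1% to 24.8%, 6.46% to 16.3%, 13.4% to 22.2% and 17.1% to 19.7%, and from 19.1% to 25.6%, 0.797% to 6.46% and 0% to 0.00407%. With the replicate block, d15 against d10 gave 2 calls in place of 0, as did DESeq2, beside 0.491% and 0.0805% of transcripts, and the block gave 23 calls for E9.25 ysE against mesoderm, 25 for EBs against E9.25 ysE, 16 against mesoderm and 32 against liver. All transcripts higher and lower under the block were 0.33% and 0.0241% for d15 against d10, then 15.2% and 18.3%, 27.8% and 25.9%, 15.3% and 18.1%, and 25.6% and 22.6%. At 20 reads, ysE methylation lay below EBs in 19 of 21 covered serpin genes in place of 34 of 41, since fewer genes were covered, beside 64.0% of 13094 genes. Peaks in the upper part of the scores lay at 7 serpin genes in place of 16, beside 47.8% of 21900 genes. Of 146 called pairs of gene and comparison, 0 reversed in sign in a setting that tested them, though many lost their call in some settings. The settings shared libraries with the main fit, so a reversal of a called difference was unlikely from the start. The E12.5 ysE library has no replicate and could not be left out of its own comparisons, and members with few counts are poorly measured.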
